A study of Mus musculus with 20 samples.

Results

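S100 genes encode small EF-hand proteins that bind calcium, and this account describes 10 of them in sorted mouse mammary epithelial cells: S100a1, S100a4, S100a6, S100a8, S100a9, S100a10, S100a11, S100a14, S100a16 and S100b. They were chosen by gene symbol in the array platform's annotation, with earlier results of these data known, and are 10 of 19937 genes measured. S100a8 was already known to be higher in mutant cells, so its mutant values are given as a description with no test. Each gene was read by its single-symbol probe set, and by the one with the higher mean for S100a11, which has a pair of them.

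The mutant cells came from K8-creERT2/PIK3CA H1047R mice, in which a Cre driven by keratin 8 and activated by tamoxifen turns on a transgene for a mutant catalytic subunit of PI3K, and cells with the active transgene carry GFP. The groups were GFP-positive mutant basal cells, GFP-negative mutant basal cells and control basal cells (CD24 low, Sca1 negative), GFP-positive mutant and control luminal cells negative for Sca1 (CD24 high), and GFP-positive mutant and control luminal cells positive for Sca1. Controls carried K8-creERT2 without the transgene and were collected as GFP-negative cells. All mice were of a mixed FVB/CD-1 background, all groups are labelled as tamoxifen treated and were taken 4 weeks later, and all sorts were gated on CD45-negative cells. Each array held RNA amplified from 2000 sorted cells of pooled glands of 2 to 3 mice, from 3 independent sortings. Each group had 3 arrays, except GFP-positive Sca1-positive luminal cells with 2. GFP-positive mutant cells, basal and luminal, were set against GFP-negative control cells, so the transgene and the choice of cells in which Cre acted cannot be told apart in these comparisons.

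Values are log2 probe set levels, so a difference of 1 is a 2-fold change. Array medians over all probe sets lay between 3.66 and 3.80, and values near this range are at the low end of the scale. The basal keratin gene Krt5 had means of 10.55 to 10.78 in the basal groups and 4.83 to 6.97 in the luminal groups, and the luminal keratin gene Krt18 had means of 9.63 to 10.69 in the basal groups and 11.83 to 11.98 in the luminal groups. Replicate 2 of GFP-positive mutant basal cells and replicate 2 of control Sca1-positive luminal cells stood apart by a narrower spread over probe sets (SD 1.71 and 1.72) than the other arrays (1.78 to 1.88). Calls rest on limma, with p-values adjusted by Benjamini-Hochberg over all 19937 genes and a threshold of 0.05, and "rose" and "fell" stand for calls alone.

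S100 proteins work as dimers that change shape on binding calcium and then contact target proteins such as annexins and cytoskeletal components, and some are also released from cells and act as signals. S100A8 and S100A9 pair as calprotectin, which is best known from neutrophils and binds metal ions that microbes need. S100A10 is unusual in the family in that it does not bind calcium, and it joins annexin A2 in a complex at the cell membrane. By the RefSeq gene table, 9 of the 10 genes lie on mouse chromosome 3, where S100a8 and S100a9 are direct neighbours and S100a7a lies on the other side of S100a8. S100b lies on chromosome 10.

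S100a8 was high in each of the 3 GFP-positive mutant groups. In GFP-positive Sca1-negative luminal cells it had log2 levels of 9.21, 8.61 and 9.65, against 4.31, 6.18 and 6.15 in control Sca1-negative luminal cells. Every mutant array lay above every control array, and control replicate 1 was lower than the other control arrays. The means were 9.15 ± 0.52 in mutant and 5.55 ± 1.07 in control cells (SD, n = 3 each), a difference of 3.61 ± 0.54 (SE), or 12.2-fold.

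In GFP-positive mutant basal cells S100a8 stood at 8.74, 7.88 and 8.37, against 3.71, 3.58 and 3.49 in control basal cells. These groups were far apart, and the control values were near the array medians. The difference was 4.74 ± 0.54 (SE), or 26.7-fold. GFP-negative basal cells from mutant mice had S100a8 levels of 3.74, 4.03 and 3.52, and these overlapped the control basal arrays (difference 0.17 ± 0.54, SE). GFP-positive basal cells thus lay 4.57 ± 0.54 (SE) above the GFP-negative basal cells of the mutants, or 23.7-fold.

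In Sca1-positive luminal cells S100a8 had levels of 5.99 and 7.25 in the GFP-positive mutant arrays, against 3.75, 5.60 and 3.51 in the control arrays. The groups did not overlap, and control replicate 2, an array of narrow spread, was the highest of the control arrays. The difference was 2.33 ± 0.61 (SE), or 5.04-fold, and it was 2.99 without control replicate 2 and 1.70 without mutant replicate 3. None of these S100a8 differences was tested, since the gene was chosen for them. The mutant difference was larger by 1.13 (95% interval -0.50 to 2.77) in basal than in Sca1-negative luminal cells and smaller in Sca1-positive than in Sca1-negative luminal cells (-1.27, 95% interval -3.01 to 0.46), also without a test. These intervals describe the spread alone, and the order of the mutant differences was not tested.

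**Figure D1:**
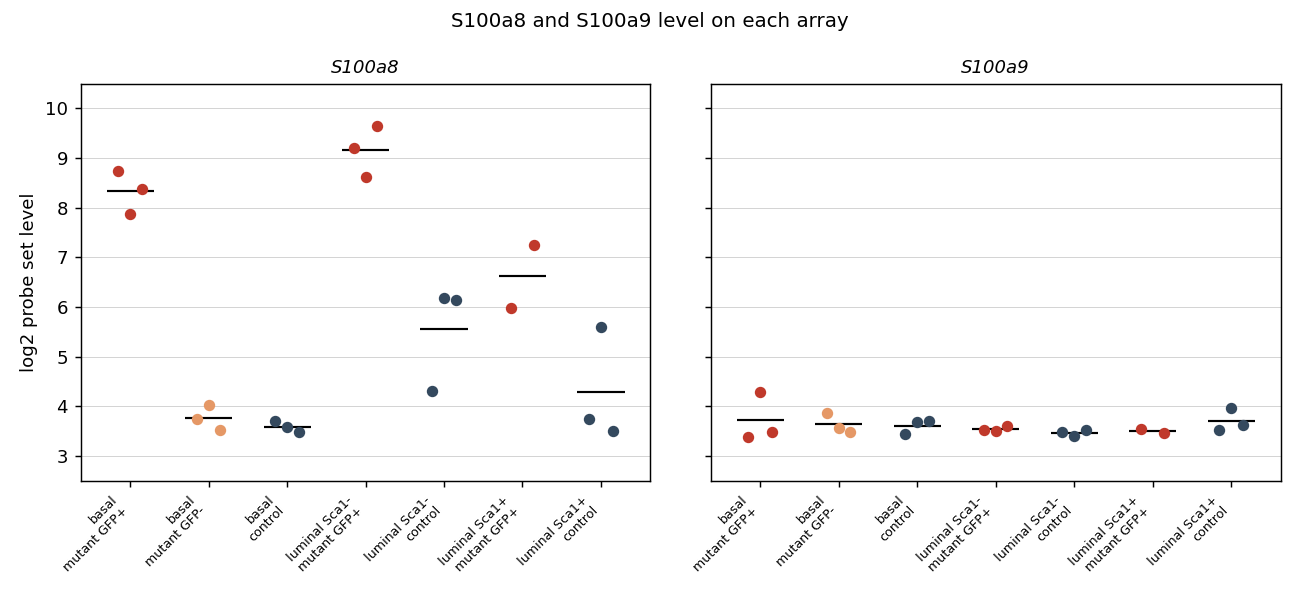
Level of S100a8 (left) and S100a9 (right) on each of the 20 arrays, as log2 probe set level, in the 7 sorted groups. Points are arrays, short bars are group means, red marks GFP-positive mutant, orange GFP-negative mutant and dark blue control cells. S100a8 lies between 5.99 and 9.65 on the GFP-positive arrays and at 6.18 or below on all others, while S100a9 stays between 3.38 and 4.29.

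Ordered by mean, S100a8 was highest in GFP-positive Sca1-negative luminal cells (9.15), followed by GFP-positive basal (8.33), GFP-positive Sca1-positive luminal (6.62), control Sca1-negative luminal (5.55), control Sca1-positive luminal (4.29), GFP-negative mutant basal (3.76) and control basal cells (3.59). Of the neighbours in this order, only the GFP-positive basal and GFP-positive Sca1-positive luminal arrays did not overlap. The span of 5.56 between the highest and lowest group mean was at percentile 99.8 of all genes.

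S100a9, whose product is the usual partner of S100A8, did not show this pattern. In GFP-positive Sca1-negative luminal cells its levels were 3.53, 3.50 and 3.61, against 3.48, 3.39 and 3.52 in control cells. In GFP-positive mutant basal cells they were 3.38, 4.29 and 3.49, against 3.45, 3.68 and 3.696 in control basal cells, and in Sca1-positive luminal cells 3.55 and 3.46 in the mutant against 3.53, 3.96 and 3.63 in the control. The groups overlapped each time, and the 2 highest values were on the arrays of narrow spread.

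Mutant minus control, the S100a9 difference was 0.08 in Sca1-negative luminal cells (95% interval -0.32 to 0.47, adjusted p = 0.970) and 0.11 in GFP-positive basal cells (-0.28 to 0.51, adjusted p = 0.841). It was -0.21 in Sca1-positive luminal cells (-0.65 to 0.24, adjusted p = 0.799). The upper end of each interval was under the S100a8 difference in the same arrays. Whether the S100a9 probe set registers its RNA in these cells was not tested, since no group was high for it.

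The stretches before the starts of S100a8 and S100a9 are shown because these neighbouring genes, whose products pair, had different values in the GFP-positive cells. They are the 250 bases before each RefSeq start in build GRCm38.p6, at chr3:90668821-90669070 on the plus strand and chr3:90695722-90695971 on the minus strand, written 5′ to 3′ along the gene. Capitals mark matches to the motifs searched.
S100a8: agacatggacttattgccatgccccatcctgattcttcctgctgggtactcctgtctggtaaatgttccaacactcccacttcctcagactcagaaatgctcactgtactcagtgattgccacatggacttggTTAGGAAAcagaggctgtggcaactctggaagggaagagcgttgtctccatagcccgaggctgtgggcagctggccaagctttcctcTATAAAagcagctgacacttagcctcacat
S100a9: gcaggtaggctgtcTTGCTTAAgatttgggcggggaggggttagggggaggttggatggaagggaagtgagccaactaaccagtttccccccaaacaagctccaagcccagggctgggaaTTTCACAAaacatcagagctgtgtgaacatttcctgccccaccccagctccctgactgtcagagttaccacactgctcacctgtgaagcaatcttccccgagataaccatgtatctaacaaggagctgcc

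The motifs were searched on both strands, with positions counted back from the start of the gene. The TATA box was searched as TATAAA, which 12.4% of the 32851 promoters in the table hold in the same window. S100a8 held it from position -30 to -25, and S100a9 did not hold it there. The C/EBP motif was searched as TTNNGNAA, which 36.8% of the promoters hold, so that a match is common. S100a8 held 1 match, from -117 to -110, and S100a9 held 2, from -236 to -229 and from -130 to -123. These matches describe letters alone. STAT was searched as TTCNNNGAA. FOXO was searched by its core letters TGTTTAC. For AP-1 the letters were TGANTCA, and NF-kB was searched by its kappa B motif. Neither stretch held a STAT, NF-kB, FOXO or AP-1 match, which were in 7.02%, 1.41%, 3.17% and 6.75% of the promoters. The table held entries for 8 of the 10 genes, and S100a10 and S100a14 were the others.

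Markers of leukocytes were examined beside S100a8, which neutrophils carry in abundance. All 12 markers in the neutrophil list, among them Ly6g, Mpo, Elane, Cxcr2 and Ptprc (CD45), had means under 4.5 in every group. The mean level of the list was 3.31 to 3.57 on the GFP-positive basal arrays, 3.36 to 3.42 on the GFP-negative basal arrays and 3.35 to 3.43 on the control basal arrays. It was 3.26 to 3.30 on mutant and 3.31 to 3.35 on control Sca1-negative luminal arrays, and 3.22 to 3.24 on mutant and 3.31 to 3.55 on control Sca1-positive luminal arrays. Of the 12, Camp (the antimicrobial peptide cathelicidin) rose in GFP-positive basal cells, at 4.35 against 3.85 in control basal cells (difference 0.50 ± 0.13, SE, adjusted p = 0.0455), and no other was called in a mutant comparison. Between GFP-positive and control basal cells 4.23% of all genes were called.

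Of 7 macrophage markers, 6 had means under 4.5 in every group. The exception, Cd68 (a lysosomal protein), had means from 5.14 to 6.92 over the groups and was not called. Mutant minus control, Cd68 differed by 1.27 in the Sca1-negative luminal gate (adjusted p = 0.128) and by -0.24 in GFP-positive basal cells (adjusted p = 0.829). The list lay at 3.58 to 3.62 on GFP-positive and 3.57 to 3.72 on control basal arrays, at 3.58 to 3.81 on mutant and 3.47 to 3.71 on control Sca1-negative luminal arrays, and at 3.50 to 3.67 on mutant and 3.41 to 3.83 on control Sca1-positive luminal arrays. In bulk samples such as these, fewer cells that carry an RNA and less of it per cell cannot be told apart.

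Some markers of other cell types also changed in the cells with higher S100a8, in both directions. Of 5 luminal progenitor markers, Elf5 and Cd14 rose in GFP-positive basal cells, where 4.23% of all genes were called. The mean level of the list was 6.09 to 6.88 on GFP-positive and 5.04 to 5.38 on control basal arrays. Elf5 (a transcription factor of the milk lineage) was at 5.73 in GFP-positive against 3.90 in control basal cells (1.84 ± 0.43, SE, adjusted p = 0.0227). It was the 1 of 5 that rose in Sca1-negative luminal cells (2.23 ± 0.43, SE, adjusted p = 0.0113), where 1.9% of all genes were called. The list lay there at 8.63 to 8.88 on mutant and 7.90 to 8.21 on control arrays. In Sca1-positive luminal cells 0 of 5 were called by limma, against 0.226% of all genes, and the list lay at 6.86 to 6.89 on mutant and 6.04 to 6.27 on control arrays.

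Of 7 general luminal markers, the keratin genes Krt18 (1.01 ± 0.21, SE, adjusted p = 0.0114) and Krt19 (1.48 ± 0.38, SE, adjusted p = 0.0388) rose in GFP-positive basal cells, where 4.23% of all genes were called. The list lay there at 7.49 to 8.61 on GFP-positive and 7.16 to 8.04 on control arrays. Of 9 basal markers, Myh11 (-0.70) and Oxtr (-1.84) fell there, and the list lay at 9.08 to 9.49 on GFP-positive and 9.596 to 9.68 on control arrays. Of 5 endothelial markers Cdh5 fell there (-0.99). In Sca1-positive luminal cells Krt5 was the 1 of 9 basal markers that rose (2.14 ± 0.28, SE, adjusted p = 0.00223), where 0.226% of all genes were called.

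Hormone-sensing luminal markers were lower in mutant Sca1-negative luminal cells, with 4 of 5 called, against 1.9% of all genes: Pgr (-2.65), Prom1 (-2.29), Foxa1 (-2.11) and Esr1 (-1.32). The list lay at 5.46 to 5.80 on mutant and 7.37 to 7.76 on control arrays. Sox10, the 1 of 4 listed Schwann cell markers called in this comparison, rose in the same cells (1.29 ± 0.19, SE, adjusted p = 0.00125). In control cells Sox10 was higher in basal than in Sca1-negative luminal cells (1.37 ± 0.19, SE, adjusted p = 0.000114). Mbp, of the same list, was lower there (-0.78 ± 0.13, SE, adjusted p = 0.000818). Whether Sox10 reads Schwann cells in these gates was not tested.

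Of 7 fibroblast markers, Dcn and Col1a2 rose in GFP-positive basal cells, where 4.23% of all genes were called. The list lay at 4.66 to 4.87 on GFP-positive and 4.13 to 4.28 on control basal arrays. Of the 7, 5 had means under 4.5 in GFP-positive basal cells, and 6 in control basal cells and in every luminal group. Dcn had its highest group mean in control Sca1-positive luminal cells, at 11.20. Dcn (the matrix protein decorin) was at 10.58 in GFP-positive and 7.43 in control basal cells (3.15 ± 0.45, SE, adjusted p = 0.000477). In Sca1-negative luminal cells Dcn fell, at 7.65 in mutant and 10.48 in control cells (-2.83 ± 0.45, SE, adjusted p = 0.00253). The part of these cell types in the S100a8 values was not tested.

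The genes whose 7 group means were most like those of S100a8 were taken from the 1186 other genes whose own means spanned at least 2. They were Car2 (a carbonic anhydrase, r = 0.963), Slc20a1 (a phosphate transporter, 0.949), Cbr2 (a carbonyl reductase, 0.933), the milk casein gene Csn2 (0.930) and Xdh (0.925), which is needed for milk fat secretion. Car2 had means of 8.51 in mutant and 5.58 in control Sca1-negative luminal cells, and 6.80 in GFP-positive mutant and 3.74 in control basal cells. These Pearson r are over 7 points, whose groups can share pools of mice, and are given as a description.

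Among the other 9 genes, 0 were called between mutant and control Sca1-negative luminal cells by limma, where 1.9% of all genes were called. At an unadjusted p under 0.05 there were 3 of the 9, and 11.2% of all genes. S100a6 (calcyclin) had levels of 11.64, 11.47 and 11.65 in mutant cells, against 11.83, 11.97 and 11.94 in control cells, and the groups did not overlap. Its difference was -0.33 ± 0.11 (SE, adjusted p = 0.225). S100a11, known to bind annexin A1, differed by -0.19 ± 0.080 (SE, adjusted p = 0.371) and S100b by -0.23 ± 0.11 (SE, adjusted p = 0.438). The median difference of the 9 was -0.039, against -0.029 over all genes.

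Sca1-positive luminal cells also had 0 of 9 called by limma, against 0.226% of all genes, and 1 at an unadjusted p under 0.05, as were 8.96% of all genes. That was S100a1, best known from heart muscle, with levels of 8.68 and 8.57 in mutant cells, against 8.43, 7.82 and 8.10 in control cells. The mutant arrays lay above the control arrays, by a difference of 0.51 ± 0.24 (SE, adjusted p = 0.558). The median of the 9 was 0.0059, against -0.051 over all genes. The 95% intervals of S100a6, S100a10 and S100a11 ran from -0.33 to 0.21, from -0.30 to 0.31 and from -0.31 to 0.075.

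**Figure D2:**
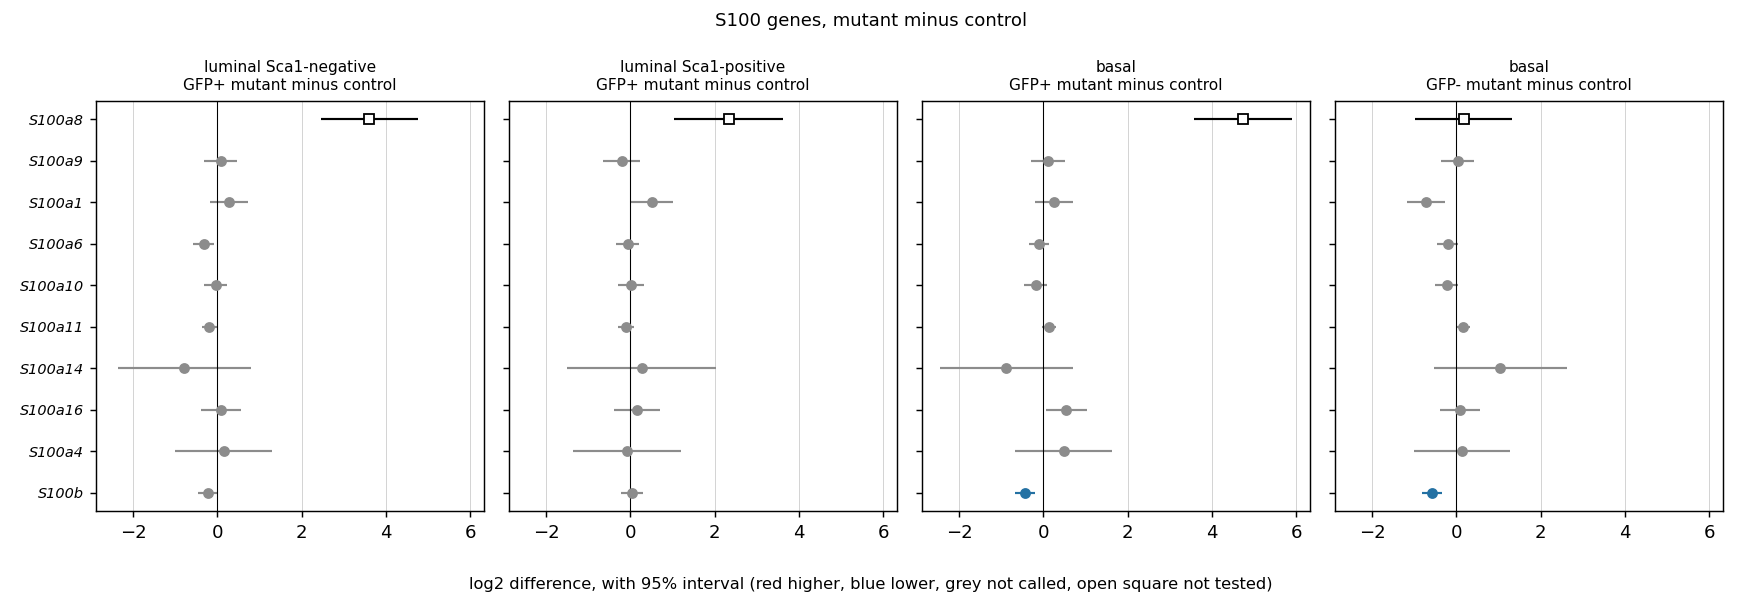
Difference in log2 level, mutant minus control, for the 10 S100 genes in 4 comparisons, with 95% intervals from limma. Open squares are S100a8, which was not tested, blue points were called lower and grey points were not called. S100a8 lies at 3.61, 2.33 and 4.74 in the GFP-positive cells and at 0.17 in the GFP-negative basal cells, while the other genes lie between -0.88 and 1.04.

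In the basal gate S100b was the 1 of 9 genes called between GFP-positive mutant and control cells, where 4.23% of all genes were called. S100b marks glia and Schwann cells and is found in several other cell types. It had levels of 3.37, 3.43 and 3.33 in GFP-positive basal cells, against 3.71, 3.74 and 3.98 in control basal cells. The groups did not overlap, and it fell by 0.44 ± 0.11 (SE, adjusted p = 0.0299), but all values were near the array medians. The call was lost without control replicate 3 (-0.35, adjusted p = 0.126) or without a GFP-positive array, at an adjusted p of 0.0849 without replicate 1, 0.0961 without replicate 3 and just over 0.05 without replicate 2.

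S100b was also the 1 of 9 called between GFP-negative mutant and control basal cells, where 0.161% of all genes were called. Its levels were 3.11, 3.13 and 3.47 in GFP-negative cells, and it fell by 0.58 ± 0.11 (SE, adjusted p = 0.0482) against the same control arrays. The call was lost when any array but GFP-negative replicate 3 was left out (adjusted p = 0.0655 to 0.144). It was also lost in 3 of 6 other settings that kept the gene (adjusted p up to 0.630), among them quantile-normalized values (0.102). On GFP-negative replicates 1 and 2, S100b was at percentiles 15.4 and 15.3 of all genes, at the low end of the scale. Within the mutants S100b did not differ beyond its spread (0.14 in GFP-positive minus GFP-negative basal cells, adjusted p = 0.691).

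S100a1 was the 1 of 9 genes called between GFP-positive and GFP-negative basal cells of the mutants, where 3.25% of all genes were called. It had levels of 8.28, 7.87 and 7.50 in GFP-positive cells, against 7.02, 6.70 and 6.98 in GFP-negative cells. The groups did not overlap, and S100a1 rose by 0.98 ± 0.21 (SE, adjusted p = 0.0173), or 1.97-fold. Control basal cells, at 7.34, 8.003 and 7.53, overlapped the GFP-positive arrays (difference 0.25 ± 0.21, SE, GFP-positive minus control, adjusted p = 0.642). GFP-negative mutant cells lay below the control arrays by a difference of -0.73 ± 0.21 (SE, adjusted p = 0.235). The call was lost without GFP-positive replicate 1 (0.78, adjusted p = 0.0829) or GFP-negative replicate 2 (0.88, adjusted p = 0.0656).

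S100a16, a widely expressed member, had levels of 8.01, 7.31 and 8.22 in GFP-positive mutant basal cells, against 7.59, 7.14 and 7.17 in control basal cells. The ranges overlapped through GFP-positive replicate 2, the array of narrow spread. The difference was 0.55 ± 0.23 (SE, adjusted p = 0.234), and 0.81 (adjusted p = 0.0421) without that array. S100a10 had its lowest value on that array too, at 10.41, against 11.06 and 10.999 on the others of its group. Its difference from control basal cells was -0.19 ± 0.13 (SE, adjusted p = 0.548).

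S100a14, an epithelial member, varied most within groups, with a pooled within-group SD of 0.99. Its levels were 5.07, 3.94 and 5.01 in GFP-positive basal cells, against 4.56, 8.43 and 6.79 in GFP-negative basal cells of the mutants and 6.16, 5.40 and 5.09 in control basal cells. GFP-negative replicate 2 was the highest of all 20 arrays. The difference of GFP-positive from GFP-negative cells was -1.92 ± 0.74 (SE, adjusted p = 0.236), and it was called without GFP-negative replicate 1 (-2.93, adjusted p = 0.0178). From control basal cells it differed by -0.88 in GFP-positive cells (adjusted p = 0.648) and by 1.04 in GFP-negative cells (adjusted p = 0.716).

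S100a4, known as metastasin and as a partner of non-muscle myosin, showed no difference beyond its spread. It had levels of 5.24, 5.25 and 5.36 in GFP-positive basal cells, against 4.6003, 3.63 and 6.56 in GFP-negative and 5.18, 4.63 and 4.61 in control basal cells. The GFP-negative arrays spanned both the lowest and the highest S100a4 level of the series. GFP-positive minus control, the difference was 0.48 (95% interval -0.66 to 1.62, adjusted p = 0.747), and for mutant against control luminal cells it was 0.15 in the Sca1-negative gate (adjusted p = 0.985) and -0.083 in the Sca1-positive gate (adjusted p = 0.978).

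**Figure D3:**
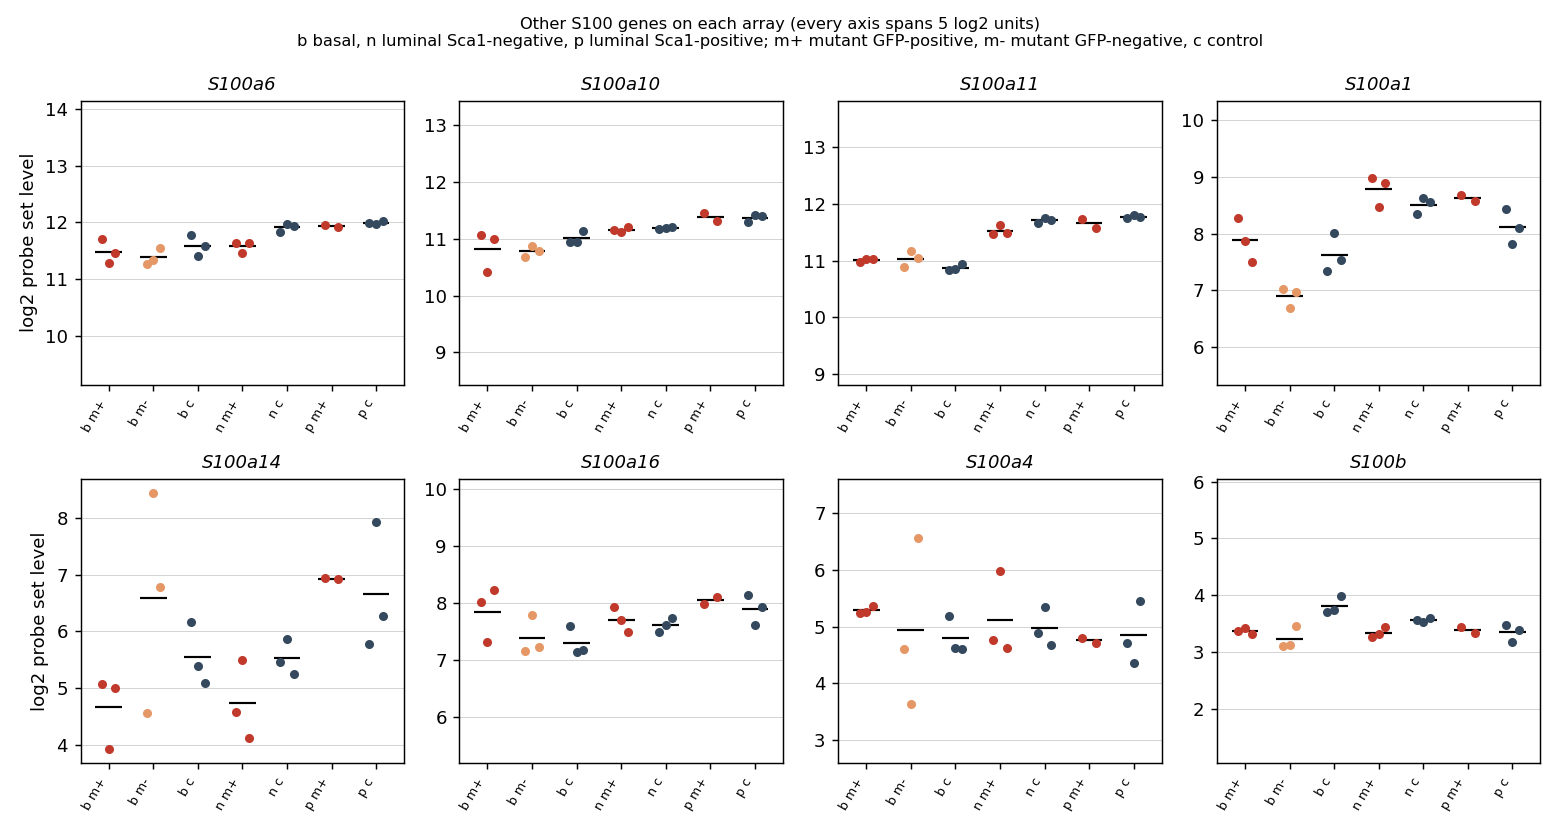
Levels of the 8 other S100 genes on each array, as log2 probe set level, with every axis spanning 5 units. Points are arrays and bars are group means; b is basal, n Sca1-negative luminal, p Sca1-positive luminal, m+ GFP-positive mutant, m- GFP-negative mutant and c control, with red, orange and dark blue for m+, m- and c. S100a11 splits by lineage (10.83 to 11.16 in basal and 11.46 to 11.80 in luminal arrays), while S100a14 and S100a4 scatter within groups.

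Tests of whether the mutant difference itself differed between cell types called 0 of the 9 genes by limma. For GFP-positive basal against Sca1-negative luminal cells 1.55% of all genes were called and 1 of the 9 had an unadjusted p under 0.05 (10.2% of all genes), S100a11 (0.32 ± 0.11, SE, adjusted p = 0.257). For Sca1-positive against Sca1-negative luminal cells 0.14% of all genes were called and 0 of the 9 had an unadjusted p under 0.05 (5.66% of all genes). The intervals of S100a14 and S100a4 spanned more than 3 log2 units in both tests, so only large differences could have been seen for them.

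The lineages were then compared within control cells. The control arrays also enter the mutant differences for which S100a8 was chosen, so its tests here are not independent of that choice. Between control basal and control Sca1-negative luminal cells 3 of 10 genes were called, against 9.89% of all genes, and all 3 were lower in basal cells. They were S100a11, S100a1 and S100a8, so the count includes the gene whose choice used these control arrays. S100a11 was the most separated, with levels of 10.83, 10.85 and 10.94 in basal cells, against 11.66, 11.75 and 11.71 in Sca1-negative luminal cells. It was lower in basal cells by a difference of -0.83 ± 0.080 (SE, adjusted p = 2.96e-06), and its second probe set gave -1.02 ± 0.093 (SE). RefSeq lists an S100a11 pseudogene, and whether the probe sets also read its sequence was not tested.

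S100a1 fell to 7.34, 8.003 and 7.53 in control basal cells, against 8.34, 8.62 and 8.56 in Sca1-negative luminal cells. The arrays did not overlap, and the difference was -0.88 ± 0.21 (SE, adjusted p = 0.0128); it lost the call without basal replicate 1 (adjusted p = 0.0624) or luminal replicate 2 (adjusted p = 0.0536). S100a8, with the control levels given above, was lower in basal cells by -1.96 ± 0.54 (SE, adjusted p = 0.0301). That call held without luminal replicate 1 and was lost without any 1 of the other 5 arrays (adjusted p = 0.0611 to 0.135) and with the compared arrays alone (0.0862).

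Between control basal and control Sca1-positive luminal cells 3 of 10 genes were called, against 12.3% of all genes. S100a11 was again lower in basal cells, with 11.75, 11.80 and 11.76 in the luminal arrays (difference -0.89 ± 0.080, SE, adjusted p = 9.27e-07). S100a6 had levels of 11.78, 11.41 and 11.59 in basal cells, against 11.99, 11.98 and 12.02 in Sca1-positive luminal cells, and fell by 0.41 ± 0.11 (SE, adjusted p = 0.0271). The S100a6 call was lost in 5 of the 6 fits that left out an array, with an adjusted p up to 0.127. S100b was higher in basal cells by 0.47 ± 0.11 (SE, adjusted p = 0.00844), at 3.81 ± 0.15 in basal and 3.35 ± 0.16 in luminal cells (SD, n = 3 each), near the array medians.

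S100a8 was not called between control basal and control Sca1-positive luminal cells (-0.69 ± 0.54, SE, adjusted p = 0.524). S100a16 and S100a10 had differences of -0.59 ± 0.23 (SE, adjusted p = 0.114) and -0.36 ± 0.13 (SE, adjusted p = 0.0859), and both were called when the arrays of narrow spread were left out (adjusted p = 0.0277 and 0.0157). Between control Sca1-positive and control Sca1-negative luminal cells 0 of 10 genes were called by limma, against 0.762% of all genes, and 1 had an unadjusted p under 0.05, as had 7.84% of all genes. That was S100a8 (-1.26 ± 0.54, SE, adjusted p = 0.555), whose control groups overlapped.

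**Figure D4:**
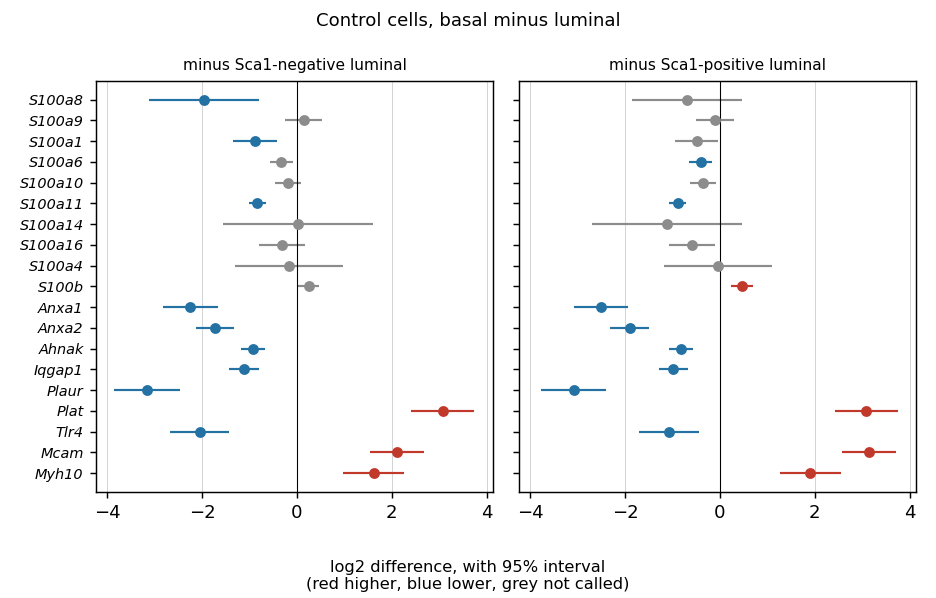
Difference in log2 level, control basal minus control luminal, for the 10 S100 genes and 9 genes for binding partners and receptors, with 95% intervals from limma. The 9 were picked from a list of 24, and the rest, called and uncalled, are not shown. Blue points were called lower in basal cells, red points higher and grey points were not called. The control arrays also entered the choice of S100a8, so its points are not independent of that choice. S100a11, Anxa1, Anxa2, Ahnak, Iqgap1, Plaur and Tlr4 are lower in basal cells in both panels, and Plat, Mcam and Myh10 are higher.

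Genes for S100 receptors and binding partners were compared between the same control lineages. Of 24 in this list, 8 were lower and 6 higher in control basal than in Sca1-negative luminal cells, where 9.89% of all genes were called, with a median difference of -0.12, against 0.011 over all genes. Anxa2, whose product binds S100A10, had means of 8.20 in basal and 9.94 in Sca1-negative luminal cells (difference -1.73 ± 0.19, SE, adjusted p = 1.05e-05). S100a10 itself, at 11.01 ± 0.11 in basal and 11.19 ± 0.019 in Sca1-negative luminal cells (SD, n = 3 each), was not called (-0.19 ± 0.13, SE, adjusted p = 0.507). Anxa1, the annexin bound by S100A11, was at 8.52 in basal and 10.77 in Sca1-negative luminal cells (-2.24 ± 0.27, SE, adjusted p = 3.1e-05).

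Ahnak, a giant scaffold that binds S100A10 with annexin A2, was lower in basal cells by -0.92 ± 0.12 (SE) and the scaffold gene Iqgap1 by -1.11 ± 0.15 (SE), with adjusted p of 5.52e-05 and 7.79e-05. In the plasminogen system, with which S100A10 works at the cell surface, the receptor gene Plaur was lower in basal cells (-3.15 ± 0.33, SE, adjusted p = 5.92e-06) and the activator gene Plat higher (3.07 ± 0.31, SE, adjusted p = 5.32e-06). Of the receptors linked to S100A8 and S100A9, Tlr4 was at 3.48 in basal and 5.54 in Sca1-negative luminal cells (-2.05 ± 0.30, SE, adjusted p = 0.000189), and Mcam was higher in basal cells by 2.11 ± 0.26 (SE, adjusted p = 4.8e-05). Ager, which encodes RAGE, was not called in any comparison, with a basal difference of 0.11 ± 0.13 (SE, adjusted p = 0.776).

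Against Sca1-positive luminal cells the list again had 8 members lower and 6 higher in control basal cells, against 12.3% of all genes called, with a median of 0.017, against -0.0071 over all genes. Anxa1 (-2.505), Anxa2 (-1.90), Plaur (-3.08) and Tlr4 (-1.07) were lower there, and Plat (3.08), Mcam (3.14) and Myh10 (1.91), a non-muscle myosin heavy chain, were higher. These comparisons share the control basal arrays.

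In Sca1-negative and in Sca1-positive luminal cells 0 of 24 were called by limma, against 1.9% and 0.226% of all genes, with medians of -0.044 and 0.068, against -0.029 and -0.051 over all genes. Tlr4 had differences of 1.04 ± 0.30 (SE, adjusted p = 0.104) and 1.19 ± 0.33 (SE, adjusted p = 0.218) there. In GFP-positive basal cells Plat was the 1 called of 24 (4.23% of all genes), at 5.47 in GFP-positive against 7.68 in control basal cells (-2.21 ± 0.31, SE, adjusted p = 0.000477). Its mutant difference was more negative in basal than in Sca1-negative luminal cells (-2.02 ± 0.44, SE, adjusted p = 0.0294).

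Against the GFP-negative basal cells of the mutants, GFP-positive cells had 3 of 24 partners called (3.25% of all genes). Plat was lower (-1.60 ± 0.31, SE, adjusted p = 0.00869), and Cacybp, the calcyclin-binding protein gene, was higher by 0.56 ± 0.12 (SE, adjusted p = 0.0146), as was the phosphatase gene Ppp5c by 1.29 ± 0.31 (SE, adjusted p = 0.0337). S100a6, which encodes calcyclin, differed by 0.10 ± 0.11 (SE, adjusted p = 0.810) in the same arrays. Between GFP-negative mutant and control basal cells 0 of 24 were called by limma (0.161% of all genes).

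Of the 6 other S100 genes that were listed, 0 were called in any of the mutant comparisons by limma, in which 0.161% to 4.23% of all genes were called. S100g, which encodes calbindin-D9k, was lower in control basal (4.15) than in control Sca1-negative luminal cells (6.70), by -2.55 ± 0.69 (SE, adjusted p = 0.0251). S100a7a, the neighbour of S100a8 on its other side, differed by -0.14 ± 0.13 (SE, adjusted p = 0.823) in mutant against control Sca1-negative luminal cells and by -0.017 ± 0.13 (SE, adjusted p = 0.972) in GFP-positive against control basal cells. S100a13 had group means from 6.41 to 7.55, and S100a3, S100a5 and S100z stayed between 3.07 and 4.34. S100a2, added to the list later, had means from 3.47 to 4.08 and was not called.

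Among the 10 genes, those with the widest span of group means after S100a8 were S100a14 (2.25), S100a1 (1.88) and S100a11 (0.89). Over the 7 group means, the genes most like S100a14 were Tspan4 (r = 0.947), Aldh3a2, Id3, Ly6g6c and Inf2 (0.849). Those most like S100a1 were Slc31a1 (0.979), Cxcl2, Asrgl1, Hmox1 and Wsb2 (0.964). For S100a11 they were Itgb6 (0.993), Sgms2, Chrnb1, Phactr4 and the tight junction gene Cldn4 (0.988). Each r is over 7 points and is a description.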

How the data were processed

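Sorted mammary cells were profiled on 20 Affymetrix arrays in 7 groups. Each deposited file holds log2 levels per probe set, a unit read from the values; how the authors normalized them is not given in the sources used here. Per the submitters' processing notes the affy package was used, without a version or role. No further normalization was done.

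Of 34760 probe sets, 21640 had 1 gene symbol in the platform table, 1321 several and 11799 none listed. The probe set with the highest mean was kept per symbol (19937 genes, no filter). Gene numbers of 21553 probe sets matched RefSeq (GRCm38.p6, used for names, gene order and promoters), changing 0 symbols.

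A linear model of 7 group means over all 20 arrays was fitted with limma 3.58.1 in R 4.3.3, with 10 comparisons, each adjusted over all genes. The p-values measure the spread between sorted pools, gates of 1 genotype can share a pool, and the number of arrays limits precision. The fit was checked on simulated data. Figures used matplotlib 3.10.9.

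The members and lists were chosen with earlier results of these data known. Named genes were the 10 members, called genes of the lists, and, for S100a8 and the 3 other members with the widest span of group means, the 5 genes with the most similar group means. S100a8 was left out of counts in mutant comparisons. Alternatives were a replicate block, array weights, quantile normalization, a trended robust prior, a filter on low genes, all probe sets, compared arrays alone and each array left out.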

Additional observations from a re-analysis of the deposited data

How the results depend on the processing

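Between GFP-positive mutant and control basal cells the count was 1, and it was 0 with quantile normalization, 0 with low genes filtered, 0 with the compared arrays alone and 2 with both arrays of narrow spread left out, a setting chosen after seeing the data; leaving out single arrays gave 0 to 1. Between GFP-negative mutant and control basal cells the count was 1, and it was 0 with array weights, 0 with quantile normalization, 0 with low genes filtered and 0 with the compared arrays alone; leaving out single arrays gave 0 to 1. Within the mutant basal gate, GFP-positive against GFP-negative, the count was 1, and it was 0 with the compared arrays alone and 0 to 2 without single arrays. Between control basal and Sca1-negative luminal cells the count of 3 was 2 with the compared arrays alone, where S100a8 lost its call, and 1 to 3 without single arrays. Between control basal and Sca1-positive luminal cells the count of 3 was 1 with low genes filtered, 1 with the compared arrays alone and 5 without both arrays of narrow spread, and 2 to 3 without single arrays. The filter leaves out S100b and S100a9 by construction; against Sca1-positive luminal cells it also took S100a6, which it keeps, to an adjusted p of 0.0505. The compared arrays alone are fewer samples. Otherwise the cause was not tested. The 5 other comparisons had a count of 0 under every alternative run. The 2 S100a11 calls were kept under every alternative, and the difference kept its sign in all 9 called cases.

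Of 84 uncalled cases, 31 changed sign under some alternative, all with a difference of 0.353 or less, and 5 were called under some alternative. With the replicate number as a block the counts were 1 for each of the basal mutant comparisons. Of 57 correlations of deviations between same-numbered arrays, 5 were over 0.1 and the highest was 0.222. That value joined replicate 2 of GFP-positive mutant basal and of control Sca1-positive luminal cells, the arrays of narrow spread, of different genotypes. The next, 0.126, joined replicate 3 of the control luminal gates, of the same genotype. The numbers were not taken as pairs in the main fit. Arrays of different numbers were not correlated for comparison, so these values do not settle whether gates shared pools. The S100a8 mutant differences ranged from 2.99 to 3.92 in Sca1-negative luminal, 1.70 to 2.99 in Sca1-positive luminal and 4.54 to 4.96 in GFP-positive basal cells over the alternatives. Counts over all genes moved more. With array weights they were 819 instead of 378 for mutant against control Sca1-negative luminal cells, 75 instead of 45 for Sca1-positive luminal cells, 10 instead of 32 for GFP-negative mutant basal cells, 231 instead of 152 for control Sca1-positive against Sca1-negative luminal cells and 72 instead of 28 for the difference between the luminal mutant effects. With the compared arrays alone they were 12 instead of 45 for Sca1-positive luminal cells, 276 instead of 843 for GFP-positive and 0 instead of 32 for GFP-negative mutant basal cells against control, 134 instead of 648 between the mutant basal cells and 43 instead of 152 between the control luminal cells.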

Other observations

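Of 6 measured fused-type S100 genes, which encode large proteins of the skin barrier such as hornerin (Hrnr) and trichohyalin (Tchh), 0 were called in any comparison by limma. Over these comparisons 0.14% to 12.3% of all genes were called. The group means of the 6 lay between 2.78 and 4.03, at the low end of the scale, where a difference could hardly be seen. Of 6 measured genes for other EF-hand calcium binders, 0 were called in the mutant comparisons. In these 0.161% to 4.23% of all genes were called, so 0 of 6 is near the background. Calm2, one of the calmodulin genes, was higher in control basal than in control Sca1-negative luminal cells (11.40 against 10.99, difference 0.41 ± 0.097, SE, adjusted p = 0.0108) and than in Sca1-positive luminal cells (0.47 ± 0.097, SE, adjusted p = 0.00353).

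Within groups, S100a8 and S100a9 deviated from their group means with r = 0.012 over the 20 arrays, a description with no test. The listed markers of Schwann cells were examined beside S100b in GFP-positive mutant and control basal cells. Sox10 had means of 6.28 and 6.27, Mbp of 4.54 and 4.58, Foxd3 of 3.90 and 3.89 and Cdh19 of 2.82 and 2.78. S100b was lower in the GFP-positive cells.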
